A study of Rattus norvegicus with 6 samples.

Results

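The nephron segment transcription factors are 8 genes, Sim1, Hnf4a, Pax2, Pax8, Gata3, Tfap2b, Tfcp2l1 and Lhx1, whose products help to set up or keep the identity of the parts of the kidney tubule. They were taken by gene symbol from the 17051 genes listed for each rat, and all 8 were present. The estimated counts of all transcripts of a gene were summed for each rat, and the group on the pre-hyperammonemic diet (HD group) was compared with the group on standard chow (AL group). The set was put together with the lower Sim1 level of every HD rat already known. Values of the HD and AL comparison are therefore given for the members as a description. Counts of members past a test threshold are printed once, beside the share of all genes, and support nothing.

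Kidney RNA was sequenced from 6 male Sprague Dawley rats. The 3 rats of the AL group (rats 61, 71 and 88) received standard laboratory chow ad libitum, and the 3 rats of the HD group (rats 64, 67 and 69) received chow with 3 g per kg body weight per day of an amino acid mixture that mimics the composition of hemoglobin. Both diets lasted 7 days. Each rat had a library of its own. The labels name the source as kidney tissue, and in the study's PCR methods RNA came from a part of a kidney. The age of the rats and the share of cortex and medulla in the tissue of each rat are not given in the sources used here. Total estimated counts ranged from 12499945 to 30466461 per rat. Between pairs of rats the chi-square per degree of freedom was at least 22.6, so no library was a repeat of another.

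A nephron is a single tube whose segments carry different transporters, and each segment keeps its own set of transcription factors in the adult. Hnf4a, a nuclear receptor, drives the genes of the proximal tubule, which recovers most of the filtered solutes. Pax2 and Pax8 are paired-box factors that specify the whole kidney epithelium in the embryo, and Lhx1, a LIM homeodomain factor, acts with them in the early nephron. Tfap2b (AP-2 beta) belongs to the distal tubule. Gata3 and Tfcp2l1 belong to the collecting duct, where Tfcp2l1 is needed for the pattern of principal and intercalated cells. Sim1 is a bHLH-PAS factor best known from the hypothalamus, where it is required for neurons that control food intake, and it pairs with Arnt or Arnt2 on DNA. In tissue of mixed cells such as these samples, fewer cells of a type and less RNA per cell cannot be told apart.

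In the genome build rn5 used by the files, Sim1 (NM_001107641, 11 exons) lies on chromosome 20 from 57195047 to 57274557. Tfap2b (NM_001106896, 8 exons) lies on chromosome 9 from 24273136 to 24302845. Pax8 is on chromosome 3 from 1520144 to 1576011, Pax2 on chromosome 1 from 271947266 to 272025770 and Lhx1 on chromosome 10 from 71752917 to 71758219. Gata3 is on chromosome 17 from 74115946 to 74135216 and Tfcp2l1 on chromosome 13 from 39741256 to 39801251. A single transcript was listed for each of these 7 genes. Hnf4a, on chromosome 3 from 166093105 to 166155667, had 3 transcripts. No other listed gene overlapped the span of any member, which matters because the library kit does not mark the strand.

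The Hnf4a transcripts begin at start sites 34415 bases apart in rn5. NM_001270933 and NM_001270931 begin upstream with an exon from 166093105 to 166093263. NM_022180 begins downstream with an exon from 166127520 to 166127774. RefSeq also lists an upstream and a downstream start of Hnf4a in build GRCr8, 35616 bases apart. The 250 bases before each are shown because the counts of this gene were divided among transcripts of both starts. Capitals mark matches, on either strand, to the GATA site AGATAA, and the downstream stretch holds none.
Upstream Hnf4a start, chr3:172605970-172606219, plus strand: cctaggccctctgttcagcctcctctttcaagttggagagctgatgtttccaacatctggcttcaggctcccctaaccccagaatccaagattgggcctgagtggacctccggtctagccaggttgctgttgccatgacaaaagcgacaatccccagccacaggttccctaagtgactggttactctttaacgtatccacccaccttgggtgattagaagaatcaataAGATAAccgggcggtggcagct
Downstream Hnf4a start, chr3:172641586-172641835, plus strand: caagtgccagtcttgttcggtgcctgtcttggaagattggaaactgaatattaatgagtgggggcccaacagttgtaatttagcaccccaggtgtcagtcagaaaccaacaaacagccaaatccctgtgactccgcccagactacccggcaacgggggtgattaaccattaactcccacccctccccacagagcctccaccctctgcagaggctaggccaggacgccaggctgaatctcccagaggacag
The upstream stretch held 1 match to AGATAA. In the windows of 300 bases that RefSeq gives around 33469 start sites, 11.6% held AGATAA. A match of letters is not a shown binding site.

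The levels of the members were compared with each other in TPM, which corrects for transcript length. In the AL group Hnf4a was at 247 ± 12.1 TPM, Pax8 at 119 ± 9.0, Tfcp2l1 at 46.3 ± 5.74 and Pax2 at 22.4 ± 7.13 (SD, *n* = 3 each). Gata3 followed with 14.4 ± 1.86 TPM, Tfap2b with 11.4 ± 2.03, Sim1 with 10.1 ± 1.11 and Lhx1 with 3.81 ± 0.191 (SD, *n* = 3 each). The order was the same in the HD group. The ranges of neighbors in this order did not overlap from Hnf4a down to Pax2 in either group. Pax2 and Gata3 overlapped in both groups, as did Tfap2b and Sim1, while Gata3 and Tfap2b overlapped only in the AL group. Sim1 and Lhx1 were apart in the AL group and overlapped in the HD group, where Sim1 was at 6.05 ± 0.0924 TPM and Lhx1 at 5.52 ± 2.24 (SD, *n* = 3 each). All 8 genes had at least 30 counts in every rat. The smallest count was 62, for Lhx1 in rat 61.

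**Figure D1:**
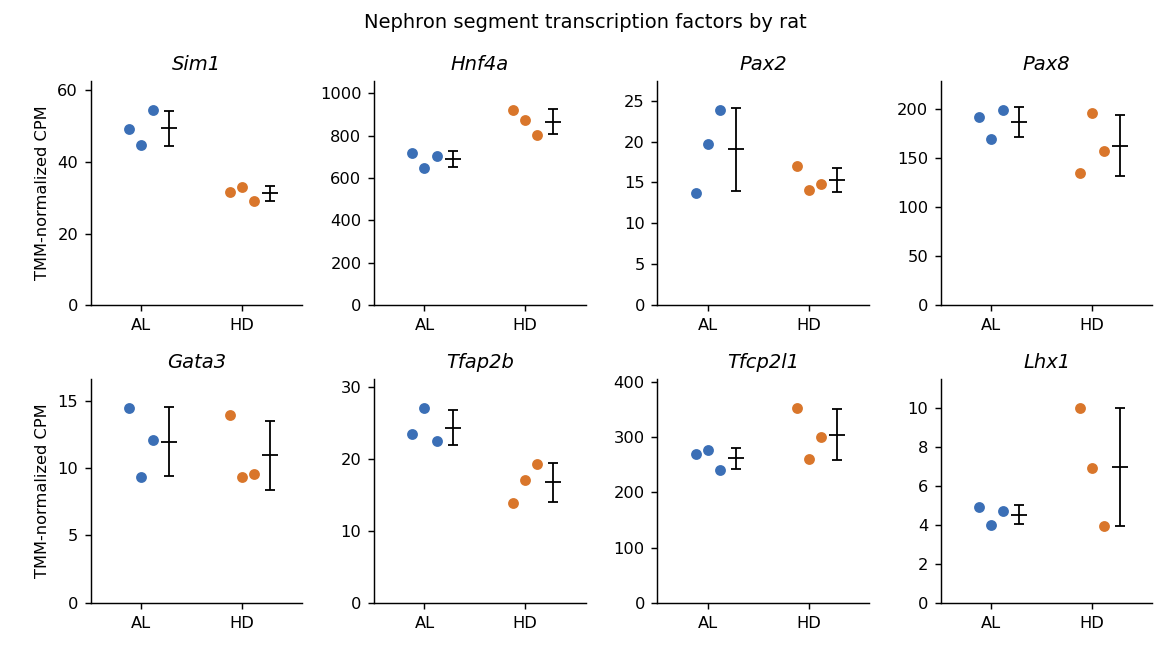
TMM-normalized CPM of the 8 transcription factors in each rat (points) with the group mean and SD (black, *n* = 3); each vertical axis starts at 0. The 3 HD rats lie below the 3 AL rats in Sim1 and Tfap2b and above them in Hnf4a, and the groups overlap in the other 5 genes.

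Sim1 was measured at 49.2, 44.6 and 54.4 normalized CPM (TMM scaling) in AL rats 61, 71 and 88. In HD rats 64, 67 and 69 it was at 31.6, 33.0 and 29.0. The HD mean was 63.1% of the AL mean, and the highest HD rat was below the lowest AL rat, which is the pattern for which the gene was chosen. On the log2 scale the difference, HD minus AL, was -0.66 (SE 0.12). In TPM, Sim1 was at 9.08, 9.90 and 11.3 in the AL rats and at 6.0, 6.16 and 6.0 in the HD rats. The estimated counts behind these values ranged from 372 to 907 per rat. Sim1 made up 2.03% to 2.27% of the summed TPM of the 8 factors in AL rats and 1.20% to 1.26% in HD rats. This share does not depend on the scaling between libraries. As it rests on the Sim1 levels for which the gene was chosen, its lower HD value largely repeats that choice. The summed TPM itself lay between 440 and 496 in AL rats and between 488 and 498 in HD rats. Hnf4a, its largest part, made up 51.5% to 53.0% of it in AL rats and 58.8% to 61.5% in HD rats.

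Hnf4a, the factor of the proximal tubule, was at 719, 647 and 703 normalized CPM in AL rats 61, 71 and 88. It was at 920, 875 and 806 in HD rats 64, 67 and 69. Every HD rat was above every AL rat (log2 fold change 0.33, SE 0.12). Of the markers of the convoluted proximal tubule, 7 of 9 tested genes had higher HD levels. Cubn (log2 fold change -0.05) and Slc6a19 (-0.09) were the lower ones. Among the higher ones, the groups overlapped in CPM in Lrp2 (0.19), Slc2a2 (0.26) and Slc5a2 (0.57). Slc5a2 was at a low level, with at most 1.38 TPM. The markers of the straight proximal tubule had a median log2 fold change of 0.09. The summed level of the convoluted list was 1346 to 1850 TPM in AL rats and 2262 to 3173 TPM in HD rats. Of this, Slc34a1 alone was at 906 to 1341 TPM in AL rats and 1582 to 2137 TPM in HD rats. The part of this list in the Hnf4a difference was not tested.

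Of the Hnf4a transcripts, NM_022180 separated the groups and NM_001270933 did not. NM_022180, from the downstream start, was at 194, 211 and 216 TPM in AL rats 61, 71 and 88 and at 270, 244 and 256 TPM in HD rats 64, 67 and 69. NM_001270933, from the upstream start, was at 38.8, 41.2 and 39.8 TPM in the AL rats and at 36.5, 42.9 and 37.1 TPM in the HD rats. NM_001270931 was listed at 0 in every rat in TPM and estimated counts. The upstream start received 16.2% ± 0.547 of the Hnf4a counts in AL rats and 13.2% ± 1.59 in HD rats (SD, *n* = 3 each), and the highest HD rat (rat 67, 15%) was below the lowest AL rat (rat 88, 15.6%). With the posterior mean counts that the authors also deposited, the shares were 16.1% and 13.7%, and NM_001270931 received between 25.6 and 71.9 counts per rat.

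These transcripts differ at both ends. The exon before the last has 123 bases in NM_001270933 and 153 bases in NM_022180 and NM_001270931. No listed transcript joins the downstream start to the short form of this exon, so RSEM could give reads across the short form only to NM_001270933. The share above therefore combines use of the upstream start with use of the short exon, and the files cannot separate these.

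**Figure D2:**
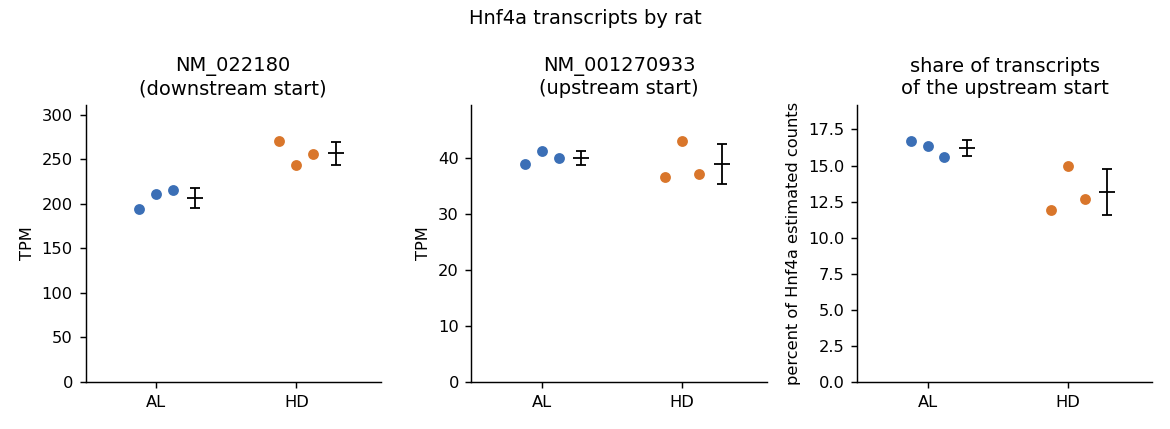
Level of 2 Hnf4a transcripts in TPM (left and middle) and the percent of Hnf4a estimated counts given to transcripts of the upstream start (right) in each rat, with the group mean and SD (black, *n* = 3). The groups are apart in NM_022180 but not in NM_001270933, and the share of the upstream start is 11.9% to 15% in the HD rats and 15.6% to 16.7% in the AL rats.

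Tfap2b, the distal tubule factor, was at 23.4, 27.1 and 22.5 normalized CPM in AL rats 61, 71 and 88. It was at 13.8, 17.1 and 19.3 in HD rats 64, 67 and 69. As in Sim1, every HD rat was below every AL rat, and the HD mean was 68.9% of the AL mean. This is a log2 fold change of -0.53 (SE 0.17), on counts of 163 to 604 per rat. The ratio of Sim1 to Tfap2b did not separate the groups, with 72.4 to 106 TPM of Sim1 per 100 TPM of Tfap2b in AL rats and 65.9 to 101 in HD rats.

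The distal markers near Tfap2b went in different directions. Slc12a3, the thiazide-sensitive cotransporter of the distal convoluted tubule, was at 18.1 to 27.6 CPM in AL rats and at 51.5 to 287 CPM in HD rats. Slc12a1, the cotransporter of the thick ascending limb (NKCC2), was at 1704 to 2518 CPM in AL rats and at 676 to 1563 CPM in HD rats. The study also reported it lower in its RNA sequencing. By qPCR it saw no diet effect on the NKCC2 isoforms, and by immunohistochemistry it saw more of the protein in the HD group. Summed over the whole lists, distal convoluted markers were at 48.3 to 135 TPM in AL rats and 148 to 476 TPM in HD rats, with Pvalb at or near 0 in every rat. Thick ascending limb markers summed to 3636 to 4177 TPM and 2624 to 4304 TPM, respectively. Their part in the Tfap2b difference was not tested.

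The paired-box factors overlapped between the groups. Pax2 was at 13.7, 19.7 and 23.8 normalized CPM in AL rats 61, 71 and 88 and at 17.0, 14.1 and 14.8 in HD rats 64, 67 and 69. The lowest level was that of AL rat 61, and the fitted difference was -0.32 (log2, SE 0.22). Pax8 was at 192, 169 and 198 CPM in the AL rats and at 134, 196 and 157 CPM in the HD rats, a log2 difference of -0.20 (SE 0.16). HD rats 64 and 69 were below all AL rats, and HD rat 67 was near the highest of them. Per 100 TPM of Pax8, Sim1 was at 8.17 to 8.74 TPM in AL rats and 5.37 to 7.51 TPM in HD rats. As the set was chosen on the Sim1 level, this lower ratio largely repeats that choice.

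The collecting duct factors also overlapped. Gata3 was at 14.5, 9.31 and 12.1 normalized CPM in AL rats 61, 71 and 88 and at 13.9, 9.34 and 9.56 in HD rats 64, 67 and 69. Its log2 fold change of -0.13 was smaller than its SE of 0.24, and leaving out single rats moved it from -0.34 to 0.02. Tfcp2l1 was at 269, 276 and 240 CPM in the AL rats and at 353, 260 and 301 CPM in the HD rats. HD rat 64 was the highest (log2 fold change 0.22, SE 0.14). Principal cell markers summed to 1473 to 1981 TPM in AL rats and 1356 to 1781 TPM in HD rats, and intercalated cell markers to 753 to 815 TPM and 716 to 850 TPM. Both sums overlapped. The intercalated sum combines 7 genes with higher HD levels and Slc4a1, which was at 220 to 232 TPM in AL rats and 133 to 169 TPM in HD rats.

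Lhx1 was the least abundant member and varied most, with the spread among the HD rats. It was at 4.92, 3.99 and 4.70 normalized CPM in AL rats 61, 71 and 88 and at 10.0, 6.95 and 3.96 in HD rats 64, 67 and 69. The lowest rat of all was an HD rat, and the highest HD rat was above it by more than the whole range of the AL group. Its log2 difference of 0.61 (SE 0.35) ranged from 0.26 to 0.91 when single rats were left out.

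**Figure D3:**
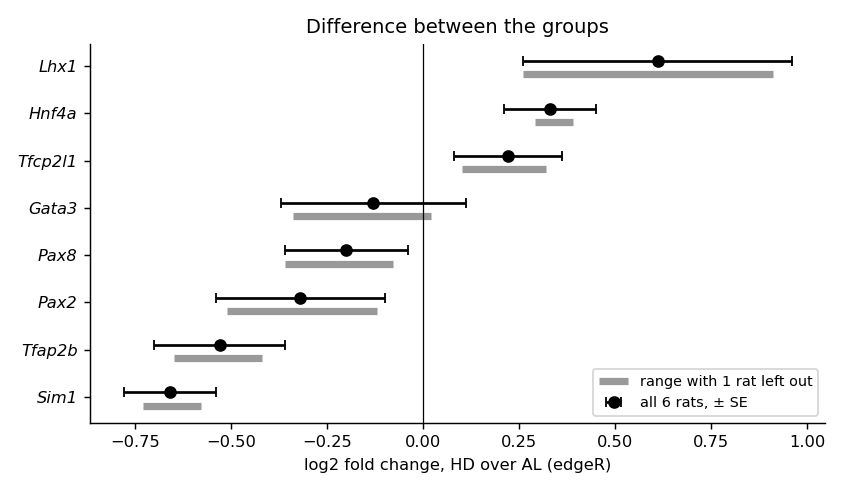
Log2 fold change of each transcription factor, HD over AL, from edgeR with all 6 rats (points, bars are the standard error) and its range when 1 rat was left out (grey). The range stays on 1 side of 0 for every gene except Gata3, and Sim1 and Tfap2b lie lowest.

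Across the set, the HD level was below the AL level in 5 of the 8 genes and above it in 3. Their median log2 fold change was -0.17, beside 0.0067 over all 11553 genes with at least 30 counts in at least 1 rat. The groups did not overlap in 3 of the 8 genes, against 14.3% of all tested genes. For single directions, 2 members were lower without overlap (7.01% of all genes) and 1 was higher (7.25%). In edgeR's quasi-likelihood test, 0 of the 8 members and 0% of all tested genes had a Benjamini-Hochberg adjusted *P* value of at most 0.05. At an unadjusted *P* value below 0.05 it gave 3 of the 8 members and 10.6% of all genes, 2 members on the lower side (5.94% of all genes) and 1 on the higher side (4.66%). DESeq2 placed 1 member and 1.58% of all genes past the adjusted threshold. As the set was chosen on this comparison, nothing is read from these counts.

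The genes that share a family or a complex with the members were taken as a list of 21 partners and paralogs, of which 19 were tested. Of these, 7 had higher and 12 had lower HD levels (median log2 fold change -0.04, or -0.12 without HD rat 69), and none passed the adjusted threshold of edgeR. Below an unadjusted *P* value of 0.05 the edgeR fit placed Hnf4g and Sim2, which is 2 of 19 tested genes beside 10.6% of all tested genes. Hnf4g, the closest relative of Hnf4a, was at 7.07, 14.6 and 10.7 CPM in AL rats 61, 71 and 88 and at 23.5, 21.2 and 17.1 CPM in HD rats 64, 67 and 69. All HD rats were above all AL rats (log2 fold change 0.93, SE 0.27, edgeR adjusted *P* = 0.399). Of all tested genes, 7.25% were higher and 7.01% lower without overlap in CPM.

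Sim2, the paralog of Sim1, was at 49.6, 58.0 and 54.1 CPM in AL rats 61, 71 and 88. In HD rats 64, 67 and 69 it was at 18.9, 35.1 and 44.5 CPM, below all AL rats but with a wide spread. In TPM the groups overlapped, with HD rat 69 at 17.2 and AL rat 61 at 17.1. This gave a log2 fold change of -0.71 (SE 0.28, edgeR adjusted *P* = 0.441). The partners showed overlapping groups. Arnt was at 11.6 to 15.9 CPM in AL rats and 14.6 to 16.8 CPM in HD rats. Arnt2 was at 51.6 to 57.3 CPM and at 34.9 to 66.7 CPM, with rat 69 above and rats 64 and 67 below every AL rat. Among paralogs of other members, the groups overlapped in Gata2 (log2 fold change 0.20), Tfcp2 (0.03) and Tfap2a (-0.17). Ubp1, a paralog of Tfcp2l1, was lower (-0.24) without overlap in CPM but not in TPM.

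**Figure D4:**
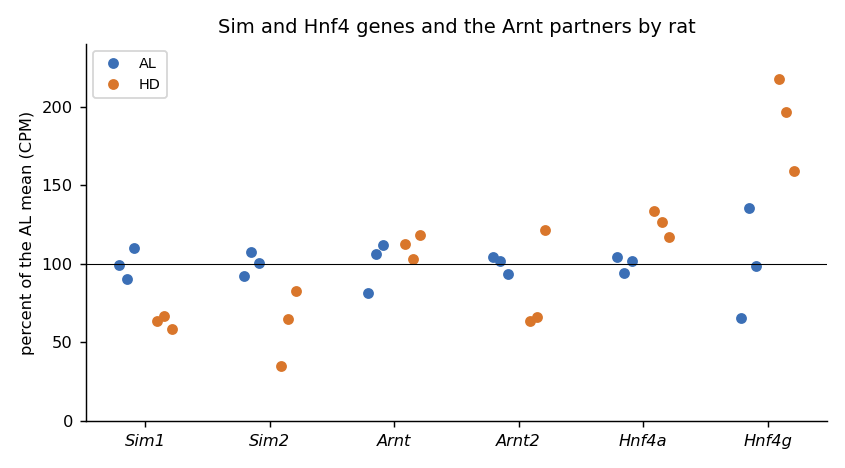
Normalized CPM of Sim1, Sim2, their partners Arnt and Arnt2, and Hnf4a and Hnf4g in each rat, as percent of the mean of the AL group (line at 100). On this scale the HD rats lie below all AL rats in both Sim genes and above them in both Hnf4 genes. In TPM the groups overlap in Sim2. The groups overlap in Arnt and Arnt2, and paralogs of the other members are not shown.

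A wider list of 35 kidney lineage factors had 30 genes in the files and 28 that were tested, with higher HD levels in 11 and lower ones in 17. Their median was -0.07 on the log2 scale (0.03 without AL rat 71) and none passed the adjusted threshold of edgeR, while DESeq2 gave 1. Below an unadjusted *P* value of 0.05 in edgeR were 3 higher genes (Wt1, Nr1h4 and Ppara) and 2 lower genes (Grhl2 and Irx2). These were 5 of 28 tested genes, beside 10.6% of all tested genes. Wt1, a factor of podocytes in the adult, was at 0.926 to 1.88 CPM in the AL group and 5.86 to 10.8 CPM under HD (log2 fold change 2.75, SE 0.39, edgeR adjusted *P* = 0.255). Nr1h4, the bile acid receptor, had a log2 fold change of 0.58 (SE 0.20) and Irx2 one of -0.44 (SE 0.17). Six2, which marks nephron progenitors of the embryo, was listed at 0 in every rat.

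Markers of the segments and of other cells of the kidney were set beside these factors. Among the 13 lists, including the partners and lineage factors, 123 genes were tested and 36 had an unadjusted *P* value below 0.05, with 0 past the adjusted threshold in edgeR and 15 in DESeq2. This is 36 genes beside 10.6% of all tested genes, and without HD rat 64 the number was 22. The lists were chosen with earlier results of these data known. Nothing is therefore read from this number or from the counts of single lists. Markers of the convoluted proximal tubule were higher for 7 of 9 tested genes (median log2 fold change 0.57, or 0.36 without AL rat 71), 4 of them below 0.05, among them the anion transporters Slc22a8 and Slc22a6. The 5 markers of the straight proximal tubule had a median of 0.09 (0.00 without HD rat 67 and 0.21 without HD rat 69), with none below 0.05. In the thick ascending limb 6 of 7 genes were lower (median -0.14, or -0.04 without HD rat 64), with 1 below 0.05. All 3 tested distal convoluted markers were higher (median 2.05), 2 of them below 0.05.

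Principal cell markers were mixed, with 4 higher and 5 lower (median -0.05, but 0.06 without AL rat 71 and 0.03 without HD rat 67). The 6 below 0.05 were Scnn1b and Hsd11b2 on the higher side and Aqp3, Avpr2, Fxyd4 and Aqp4 on the lower side. Aqp2, the water channel that defines the cell, was at 657 to 846 CPM in AL rats and 628 to 752 CPM in HD rats. Intercalated cell markers were higher for 7 of 8 genes (median 0.28). The chloride-bicarbonate exchanger Slc26a4 of type B cells was higher, at 34.5 to 40.0 and 66.3 to 117 CPM. Slc4a1 of type A cells was lower, at 586 to 730 and 375 to 527 CPM.

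Inner medullary genes were lower for 6 of 6, 4 of them below 0.05. Their median was -1.26, with -0.97 without HD rat 64 and -2.0 without HD rat 69. Of those 4, Akr1b1, Slc5a3 and Slc14a2 overlapped between the groups in CPM. The log2 fold change of Akr1b1 was -2.63, but -1.14 without AL rat 88. That of Slc5a3 was -2.37, and -0.90 at the weakest when single rats were left out. The 6 genes summed to 116 to 643 TPM in AL rats and 65.8 to 163 TPM in HD rats. Podocyte markers were higher for 6 of 7 genes (median 0.70, or 0.08 without HD rat 69), with sums of 31.6 to 73.7 TPM and 62.3 to 111 TPM. Leukocyte markers were lower for 7 of 7 tested genes (median -1.22, or -0.78 without AL rat 71) and summed to 277 to 532 TPM and 165 to 397 TPM. Endothelial markers were lower for 7 of 8 (median -0.33, 1 below 0.05), with a median of -0.06 without HD rat 64 and -0.86 without HD rat 69. Stromal and smooth muscle markers were higher for 3 and lower for 4 of 7 (median -0.32), with 3 below 0.05, and the median turned to 0.16 without AL rat 71 and 0.02 without HD rat 64. No list had a gene past the adjusted threshold of edgeR. The summed TPM of the proximal and distal convoluted lists was higher in HD rats without overlap. Among the factors Hnf4a was also higher without overlap, while Sim1 and Tfap2b were lower without overlap. The sums of the remaining lists overlapped. Sums rest largely on abundant genes, such as Slc34a1 (proximal convoluted), Calb1 (distal convoluted) and Cd74 (leukocyte). The median over genes of centered log2(CPM + 0.5) weights genes alike. By this median both convoluted lists again separated the groups. The intercalated and podocyte lists were also higher, and the leukocyte list lower, in HD rats without overlap. Of single tested genes, 14.3% did not overlap between the groups in CPM. No such share was computed for medians of lists, so nothing is read from these separations. By direction alone, cortical lists (convoluted tubules, podocytes) had mostly higher and inner medullary genes lower HD levels. A different share of cortex and medulla in the tissue of the groups cannot be told apart from a change within segments. The part of these lists in the differences of the 3 factors was not tested.

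**Figure D5:**
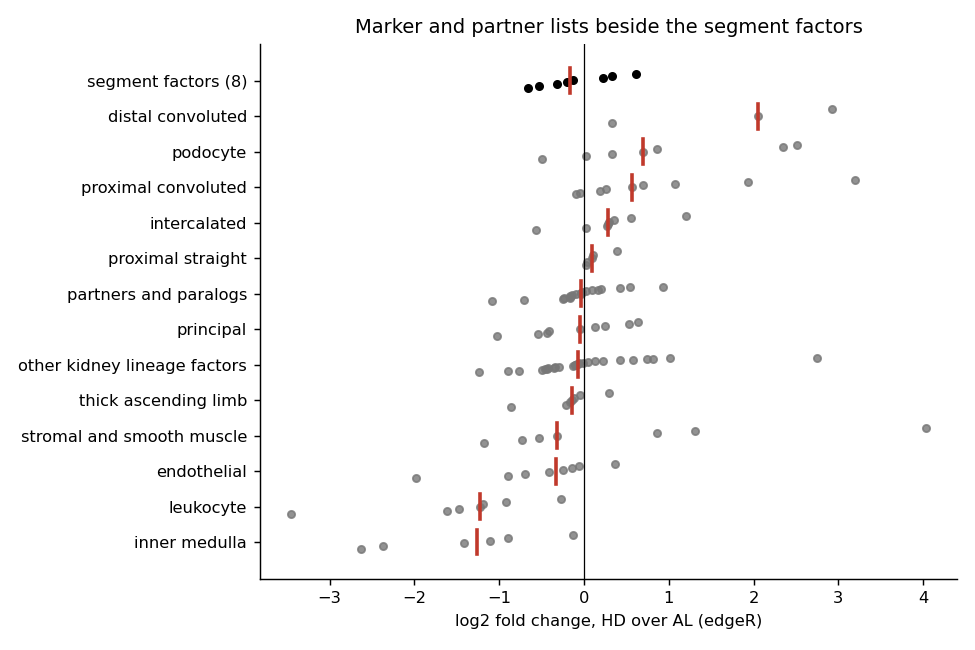
Log2 fold change, HD over AL, of the tested genes (points, without 2 lineage factors that are not reported) in the 13 marker and partner lists and in the 8 segment factors (top), with the median of each list over all its tested genes (red). Medians run from -1.26 in the inner medulla to 2.05 in the distal convoluted tubule, and the segment factors lie between -0.66 and 0.61.

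The genes most like Sim1 were those with the smallest root mean square difference between profiles of log2(CPM + 0.5) over the 6 rats, each centered on its own mean. They were Ptbp2 (0.069), Egr2 (0.107) and RGD1309079 (0.115). Ptbp2, a splicing regulator, was at 10.3 to 12.2 CPM in AL rats and 6.39 to 7.21 CPM in HD rats. Egr2 was at a low level, with 2.22 to 3.18 CPM in AL rats and 1.61 to 1.79 CPM in HD rats. Of the other members Tfap2b was the closest to Sim1, with a difference of 0.241, and 3.89% of all tested genes were closer. For Hnf4a the difference was 0.496, with 72.8% of tested genes closer to Sim1. Sim1 was chosen for its lower HD level, so a gene is close to it mainly through a similar group difference. Nothing is read from this order.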

How the data were processed

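The authors quantified transcripts with RSEM v1.1.15 at default parameters on UCSC gene models for rn5, 1 library per rat. They deposited estimated counts (expected counts, not normalized), posterior mean counts and TPM values (corrected for transcript length and depth). Read filters before RSEM are not given in the sources used here. Counts were summed per gene and rounded, and the 11553 genes with at least 30 counts in at least 1 rat were fitted with edgeR 4.0.16 (quasi-likelihood, TMM, R 4.3.3). Benjamini-Hochberg adjustment ran over all tested genes, and SE is the absolute log2 fold change divided by the square root of F. DESeq2 1.42.0, limma 3.58.1 on log2(TPM + 0.1), other size factors, other count filters, robust estimation, posterior mean counts and leaving out each rat were alternatives. The posterior mean counts for the Hnf4a share and the TPM for overlap between groups were added after seeing the data, and the fits were tested on simulated data. The common biological coefficient of variation was 0.242. Named genes were the members, the first 2 genes of each list, up to 4 more per list by the smallest *P* value, and the 3 genes most like Sim1, with other genes named after their values were seen. Of the lineage factors, 2 are counted in their list but not reported here. Members and lists were chosen with earlier results of these data known. Sequences are from RefSeq (GRCr8), where 7 of the 8 members matched.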

Additional observations from a re-analysis of the deposited data

How the results depend on the processing

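The number of genes past the adjusted threshold was 0 with edgeR and with limma on log2(TPM + 0.1), 182 with DESeq2 and 2 when every gene with a count was tested, and it ranged from 0 to 4 when single rats were left out. For the 8 members the number was 0, and 1 with DESeq2. For the marker and partner lists it was 0, 15 with DESeq2 and 1 when every gene with a count was tested, ranging from 0 to 2 with single rats left out. The list genes below an unadjusted *P* value of 0.05 ranged from 22 (without rat 64) to 44 when single rats were left out, and the cause was not tested. All 8 member fold changes stayed within 1 SD between rats of their value in all 14 alternatives, but Gata3 turned to 0.02 in 1 of them. Slc7a13 turned to -0.05 with library size alone and -0.07 with limma, and ranged from -0.19 to 0.24 with single rats left out. In such fits Aqp2 ranged from -0.12 to 0.06, Podxl from -0.10 to 0.58 and Cdh5 from -0.66 to 0.21. No paired analysis was possible because the labels give each rat a number of its own. Lhx1 had few counts (62 to 72 in AL rats and 118 to 139 in HD rats). Its spread lay among the HD rats (3.96 to 10.0 CPM), beside 3.99 to 4.92 CPM in AL rats.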
